A study of Mus musculus with 12 samples.

Results

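Lysosomal proteases and membrane proteins were followed in mouse testis through 9 genes: the cathepsins Ctsh, Ctsb, Ctsd, Ctsl, Ctsz and Ctss, the membrane proteins Lamp1 and Lamp2, and prosaposin (Psap). They were taken by symbol from the platform annotation, which gave 13 probes, and make 9 of the 16255 genes and unnamed probes (features) on the arrays. All probes of a gene were averaged. Of the 14729 features with enough values for a test, 8 were among these genes; Lamp2 was not tested.

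Testis RNA came from Wobbler mice that carry a modifier, from Wobbler mice and from wildtype mice, all of them males on a Castaneus background. Wobbler is a recessive missense allele of Vps54, which encodes a subunit of the Golgi tether GARP. The labels give neither the identity of the modifier nor the age of the animals. Each channel of a 2-colour cDNA array held RNA pooled from 3 animals, and each pair of genotypes (modifier over wildtype, modifier over Wobbler, Wobbler over wildtype) was hybridised on 4 of 12 arrays, 2 of them with exchanged dyes. The labelling protocol also names a reference pool of 6 control animals that does not match the channel labels, which were followed here. The labels do not say whether the arrays of a pair used separate pools, so the p-values reflect how far the arrays differed from one another, and that variation may be technical.

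Cathepsins are proteases of the acidic lysosome. Most are cysteine proteases, and cathepsin D is an aspartic one. LAMP proteins line the lysosomal membrane, and prosaposin is the precursor of the saposins, small cofactors of sphingolipid breakdown. New lysosomal enzymes leave the Golgi bound to sorting receptors, and GARP tethers the vesicles that bring such receptors back from endosomes. In testis, Sertoli cells are known to make cathepsin L and prosaposin (also called sulfated glycoprotein 1), whereas cathepsin S is typical of macrophages and other antigen-presenting cells.

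Many lysosomal genes carry the E-box CACGTG near their start, the core of the CLEAR element bound by the transcription factor TFEB. The 120 bases before the start of Lamp1 (GRCm38.p6, chr8:13159041-13159160, plus strand) and of Ctsd (chr7:142387828-142387947, minus strand) are shown because they hold this core closest to the start among the genes with a window. They are RefSeq sequences, printed 5′ to 3′ with CACGTG in capitals.
Lamp1: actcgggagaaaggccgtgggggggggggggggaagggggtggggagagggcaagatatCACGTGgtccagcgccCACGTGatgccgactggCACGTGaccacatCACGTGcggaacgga
Ctsd: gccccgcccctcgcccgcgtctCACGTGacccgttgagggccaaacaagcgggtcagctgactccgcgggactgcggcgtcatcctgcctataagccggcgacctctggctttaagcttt
CACGTG reads the same on both strands. In windows of 250 bases before to 50 after the start, Lamp1 held it at positions -61, -45, -28 and -15, Ctsd at -245 and -98, and Ctsl at -236. Windows were at hand for 7 of the 9 genes (Ctsh and Ctsb had no entry), and 3 of the 7 held the core. Counted by window, 3 of their 8 windows held it (37.5%), as did 2349 of 32851 promoter windows (7.15%). The longer palindrome TCACGTGA, which contains the shorter one, lay in 320 of all windows (0.974%) and among these genes only in Ctsd, at -99. A match describes the letters and not a bound site. Lamp1 and Ctsd are set side by side again below, since their probe-averaged log2 ratios pointed in opposite directions in modifier over wildtype. Neither passed, and the positive Lamp1 mean came from a single probe, 5132, with the means of its other probes below 0.

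The deposited values are log2 ratios with no intensities. No level of any gene and no presence of a tissue marker could therefore be read, and only differences between genotypes are given. Each array held 18325 to 19584 usable spots, array medians lay between 0.025 and 0.217, and the SD over spots ran from 0.617 to 1.61, widest on replicate 2 of Wobbler over wildtype. Of 156 possible values for the 13 probes, 148 were present. Agreement between the dye orientations was weak over the whole array. After turning, their mean ratios correlated at 0.115 in modifier over wildtype, 0.0439 in modifier over Wobbler and 0.00392 in Wobbler over wildtype. These correlations run across the 14729 tested features, which are not independent. Which sign means higher rests on array titles and dye order and is only likely; this holds for every signed value that follows.

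Ctsh, an aminopeptidase among the cysteine cathepsins, was the member that passed the test. It fell in modifier testis against wildtype testis and was lower on all 4 arrays. Of the 8 tested members, 1 was called lower and 0 higher in modifier over wildtype at an adjusted p under 0.05, where 0.733% of all tested features were called and 0.699% were called lower. At an unadjusted p under 0.05 there were 3 of 8 (Ctsh, Ctsd and Ctsl), against 7.33% of all features. The members were chosen with earlier results of these data known. Their counts and medians, here and below, are therefore descriptions and no independent readout. By limma, 0 members were called in modifier over Wobbler (0.414% of all features called) and 0 in Wobbler over wildtype (0.306%).

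**Figure D1:**
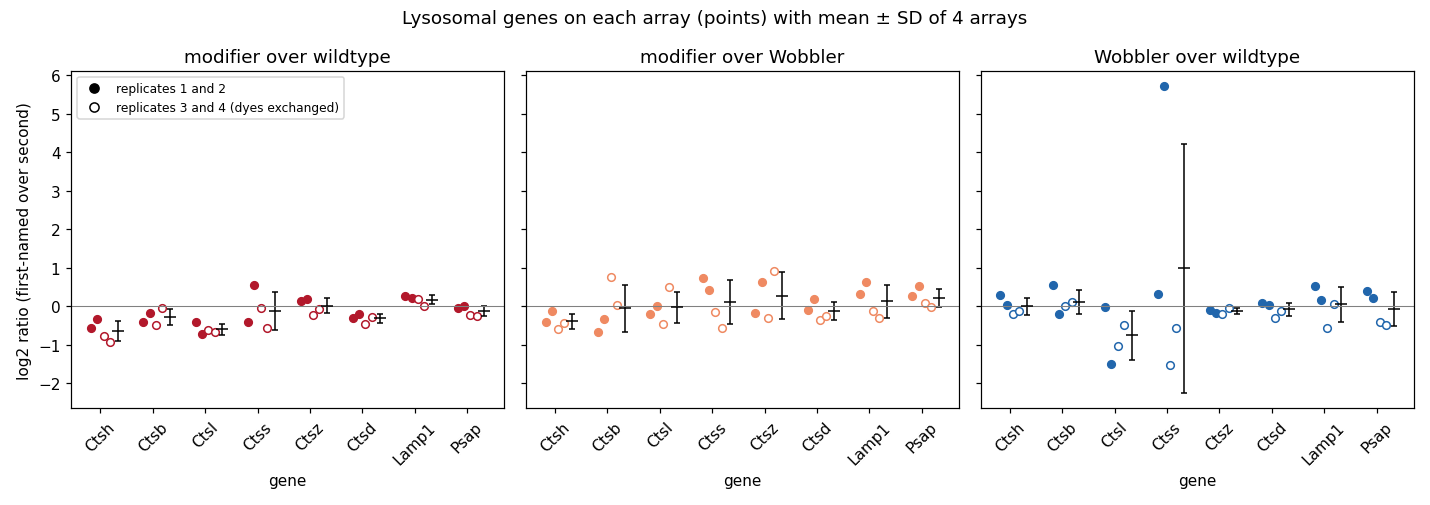
Log2 ratio of each tested gene on each array (vertical axis), by comparison, with modifier over wildtype first; each point is 1 array, open points are the dye-exchanged replicates 3 and 4, and the bar beside them is the mean ± SD of the 4 arrays. Ctsh lies below 0 on all 4 arrays of modifier over wildtype, between -0.92 and -0.32, and on all 4 of modifier over Wobbler, between -0.57 and -0.12.

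The log2 ratios of Ctsh in modifier over wildtype were -0.55, -0.32, -0.78 and -0.92 for replicates 1 to 4. Every array was below 0, and the dye-exchanged replicates 3 and 4 were lower, with a mean of -0.85, than replicates 1 and 2, with a mean of -0.44. The fitted ratio was -0.64 ± 0.10 (SE, n = 4; 95% interval -0.87 to -0.41), a 1.56-fold lower signal in the modifier (limma, Benjamini-Hochberg adjusted p = 0.021). The call needed the spread shared over all 12 arrays and the dye term: adjusted p was 0.121 without the dye term and 0.221 when the 4 arrays were fitted alone. It was also lost when any 1 of the 4 arrays was left out, with adjusted p 0.199, 0.104, 0.134 and 0.137 without replicates 1 to 4, while the ratio stayed between -0.70 and -0.60. RNA came from whole testis, so fewer cells of a type and less RNA per cell cannot be told apart.

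Marker lists of late spermatids and Leydig cells had low medians in the same comparison. The lists were chosen with earlier results of these data known, so their counts are descriptions and no independent readout. Of the late spermatid genes, 14 of 36 were called lower, where 0.699% of all tested features were. Their median log2 ratio was -0.76, and the median on single arrays ranged from -0.83 to -0.57. Examples are Smcp, a protein of the sperm mitochondrial capsule, at -1.12 and Oaz3, an antizyme of spermatids, at -1.28. Leydig cell markers were called lower in 2 of 10 cases, Cyp17a1, a steroid-synthesis enzyme, at -2.03 and Ephx1, an epoxide hydrolase, at -0.77, and their list median was -0.55 (array medians -0.91 to -0.30). Of 17 macrophage markers 1 was called lower, Tyrobp, an adaptor of myeloid receptors, at -0.68 (adjusted p = 0.014). Aif1, a calcium-binding protein of macrophages, had -0.46 (adjusted p = 0.213), and the list median was -0.01 (array medians -0.28 to 0.16). Of 10 spermatocyte markers 1 was called lower, Syce2, a protein of the synaptonemal complex, at -0.94, while Stag3, a meiotic cohesin subunit, had -0.28 (adjusted p = 0.968) and the list median was -0.01. Of 16 Sertoli markers (median -0.09), 14 peritubular and vessel markers (median 0.08) and 4 blood markers (median -0.03), 0 were called. The endothelial genes Eng and Pecam1 had 0.16 and 0.20, the globin gene Hba-a1 -0.31 and the B cell gene Ms4a1 0.11. Over all tested features the median was 0.01. The part of these cell types in the Ctsh result was not tested.

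Against Wobbler, the modifier log2 ratios of Ctsh were -0.42, -0.12, -0.57 and -0.43. All 4 arrays again lay below 0, yet the fitted ratio of -0.39 ± 0.10 (SE, n = 4; 95% interval -0.62 to -0.15) did not pass (adjusted p = 0.175). At an unadjusted p under 0.05 Ctsh was the 1 member of 8, against 11.5% of all features. In Wobbler over wildtype the values were 0.29, 0.042, -0.20 and -0.13, on both sides of 0, and the fitted ratio was 0.00 ± 0.10 (SE, n = 4; 95% interval -0.23 to 0.23; adjusted p = 0.992). In each comparison replicates 1 and 2 had a higher mean than the dye-exchanged replicates 3 and 4. The difference was 0.41, 0.23 and 0.33 in modifier over wildtype, modifier over Wobbler and Wobbler over wildtype. The typical spot differed in the same direction, as array medians before turning were all above 0. The modifier over Wobbler ratio can also be had indirectly, from the other pairs, and was then -0.65 ± 0.15 (adjusted p = 0.104). The direct value exceeded the indirect one by 0.26 ± 0.18 (adjusted p = 0.739, where 0.0272% of all features were called). For the other 7 tested members the adjusted p of this difference ran from 0.743 to 0.988.

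The named genes whose ratios followed Ctsh most closely over the 12 arrays, among the 8045 tested named genes with a value on every array, were Amigo2 (Pearson r = 0.948), Tyrobp (0.947), Me1 (0.945), Naca (0.944) and Lrrc6 (0.939). Amigo2 is a cell adhesion protein, Me1 the cytosolic malic enzyme, Naca a ribosome-associated chaperone subunit and Lrrc6 a factor of ciliary dynein assembly. These coefficients are descriptions, since the 12 points share RNA, arrays and dye orientation. Amigo2 fell in modifier testis, with -1.28 against wildtype (adjusted p = 0.000995) and -1.01 against Wobbler (adjusted p = 0.00673). Tyrobp (-0.68) and Naca (-0.61) fell in modifier over wildtype, while Me1 had -0.38 (adjusted p = 0.153) and Lrrc6 -0.26 (adjusted p = 0.591) there. Among the members Ctsd came nearest to Ctsh (r = 0.776, rank 289) and Ctsl farthest from it (r = -0.021).

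**Figure D2:**
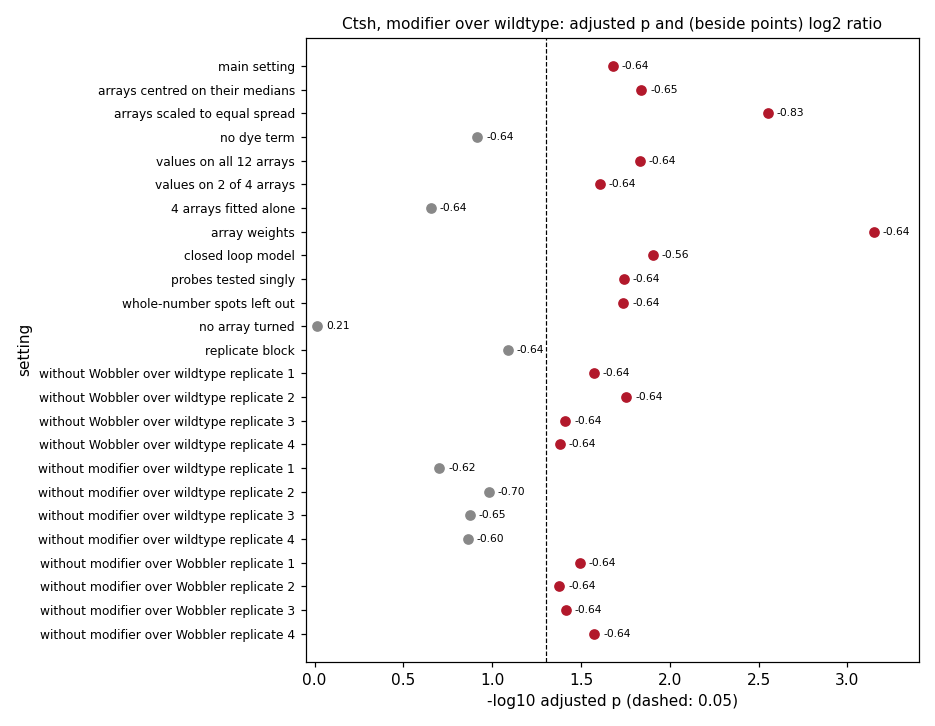
Benjamini-Hochberg adjusted p of Ctsh in modifier over wildtype on a -log10 scale (horizontal axis) under each setting (rows), with the fitted log2 ratio printed beside each point; the dashed line marks 0.05 and points in colour passed it. The ratio lies between -0.83 and -0.56 in each setting drawn except the one in which no array was turned, at 0.21, and the points without 1 of the 4 modifier over wildtype arrays lie left of the line. With no array turned, a difference between genotypes cancels by construction, so that point is no check of the call.

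Ctsl, the endopeptidase made by Sertoli cells, had log2 ratios of -0.39, -0.72, -0.62 and -0.66 in modifier over wildtype. The 4 arrays were all below 0 and lay close together, with an SD of 0.140. The fitted value of -0.60 ± 0.23 (SE, n = 4; 95% interval -1.10 to -0.09) did not pass (adjusted p = 0.516). Its SE is larger than the spread of those arrays because 1 spread per feature is shared with the other comparisons. With the arrays scaled to equal spread Ctsl was called, at -0.78 (adjusted p = 0.035), as it was with array weights, at -0.61 (adjusted p = 0.017). These settings called 483 and 702 of all 14729 tested features, against 108 in the main fit. In modifier over Wobbler the values were -0.19, 0.018, -0.45 and 0.51, with 2 arrays on either side of 0 and a fit of -0.03 ± 0.23 (95% interval -0.54 to 0.48; adjusted p = 0.984).

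Ctsl in Wobbler over wildtype had -0.010, -1.50, -1.02 and -0.48. The arrays were below 0 but spread over a range of more than 1 log2 unit, with means of -0.76 in replicates 1 and 2 and -0.75 in the dye-exchanged replicates 3 and 4. The fit gave -0.75 ± 0.23 (SE, n = 4; 95% interval -1.26 to -0.25) and did not pass (adjusted p = 0.188). Ctsl was the 1 member of 8 at an unadjusted p under 0.05 in Wobbler over wildtype, where 15.7% of all features were. With 1 array left out the value in Wobbler over wildtype ranged from -1.04 without replicate 1 to -0.48 without replicate 2. In modifier over wildtype the range was -0.67 to -0.55. Both comparisons use wildtype RNA, and neither passed. Of 16 Sertoli markers, 0 were called in either comparison. In modifier over wildtype 10 of them lay below 0 and 6 above, and in Wobbler over wildtype 6 below and 10 above, with list medians of -0.09 and 0.06. Those with the smallest p in modifier over wildtype were Clu, a secreted chaperone, at -0.37 (adjusted p = 0.278) and Serpina5, a protease inhibitor, at -0.85 (adjusted p = 0.315). Gata1, a transcription factor of Sertoli cells named here after its values were seen, had 0.44 there (adjusted p = 0.320) and 0.69 in modifier over Wobbler (adjusted p = 0.072).

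Ctsd, the aspartic protease cathepsin D, had -0.31, -0.19, -0.46 and -0.29 in modifier over wildtype as the mean of 2 probes. All arrays lay below 0 within a narrow range, and the fit gave -0.31 ± 0.10 (SE, n = 4; 95% interval -0.53 to -0.09), which did not pass (adjusted p = 0.319). With array weights the ratio was again -0.31 and passed (adjusted p = 0.028), in a setting that called 702 of 14729 features, against 108 in the main fit. Its probes pointed the same way, with fitted ratios of -0.43 for probe 16191 and -0.20 for probe 11065. The values in modifier over Wobbler were -0.083, 0.18, -0.35 and -0.26 (fit -0.13 ± 0.10, adjusted p = 0.690). Those in Wobbler over wildtype were 0.082, 0.040, -0.31 and -0.13 (fit -0.08 ± 0.10, adjusted p = 0.714). Both comparisons had arrays on either side of 0, with the dye-exchanged replicates lower.

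Ctsb, a cysteine protease with both endopeptidase and exopeptidase activity, was read by 2 probes that did not follow each other. Their mean in modifier over wildtype was -0.40, -0.18, -0.49 and -0.036 (fit -0.28 ± 0.20, 95% interval -0.72 to 0.17; adjusted p = 1). Below 0 on all 4 arrays, this mean combined a fitted -0.56 ± 0.22 for probe 15354 (adjusted p = 0.487 over 18038 probes) with 0.01 ± 0.36 for probe 4211. The gap was wider in modifier over Wobbler. There probe 4211 gave -0.69, -0.61, 1.69 and 1.47, negative before and positive after the dye exchange, while probe 15354 gave -0.63, -0.036, -0.16 and -1.38. Averaged, Ctsb stood at -0.04 ± 0.20 in modifier over Wobbler (95% interval -0.49 to 0.40; adjusted p = 0.972) and at 0.11 ± 0.20 in Wobbler over wildtype (95% interval -0.33 to 0.56; adjusted p = 0.801).

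**Figure D3:**
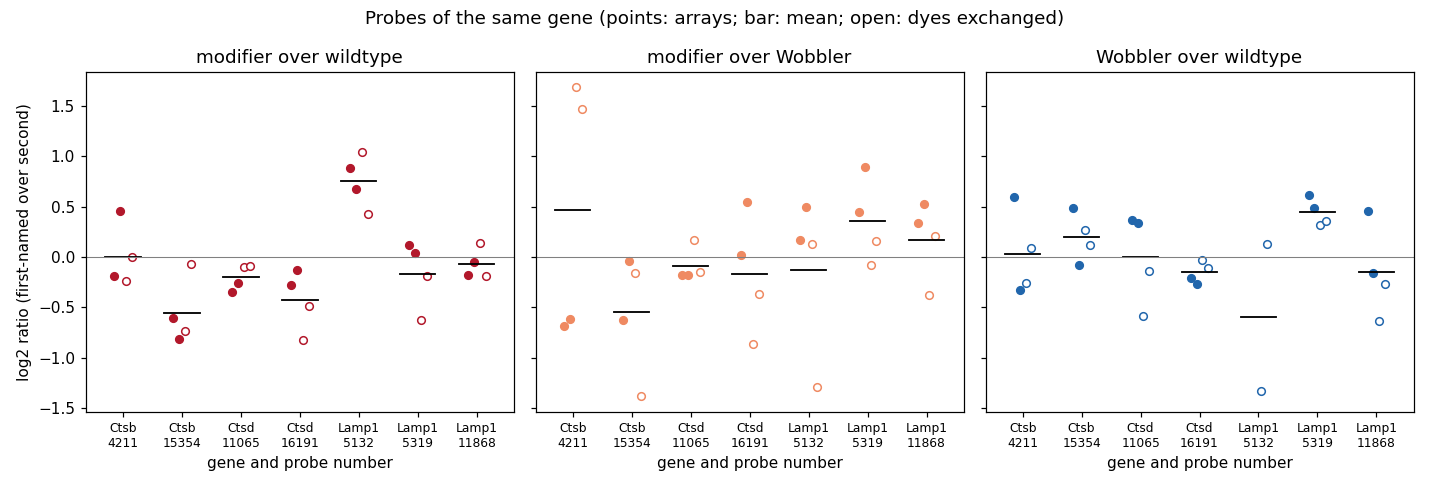
Log2 ratio on each array (vertical axis) for the single probes of Ctsb, Ctsd and Lamp1, the members with more than 1 probe; each point is 1 array, open points are dye-exchanged, and the bar is the mean. The Ctsb probes part most in modifier over Wobbler, and Lamp1 probe 5132 lies above 0 on all 4 arrays of modifier over wildtype, between 0.42 and 1.04.

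Ctsz, a carboxypeptidase also called cathepsin X, had 0.15, 0.20, -0.22 and -0.062 in modifier over wildtype, on both sides of 0 (fit 0.02 ± 0.19, 95% interval -0.41 to 0.45; adjusted p = 1). Its values in modifier over Wobbler were -0.17, 0.65, -0.30 and 0.93 (fit 0.28 ± 0.19, 95% interval -0.15 to 0.71; adjusted p = 0.640). Here each dye orientation held 1 negative and 1 positive array, and the fit ranged from 0.017 without replicate 4 to 0.48 without replicate 3. All 4 arrays of Wobbler over wildtype were slightly negative, at -0.085, -0.18, -0.20 and -0.031 (fit -0.12 ± 0.19, 95% interval -0.55 to 0.31; adjusted p = 0.776).

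Ctss, the cathepsin of antigen-presenting cells, could be measured only loosely. In Wobbler over wildtype its values were 0.31, 5.72, -1.52 and -0.56, so that replicate 2, the array with the widest spread of all, carried the mean. The fit was 0.99 ± 0.77 (SE, n = 4; 95% interval -0.72 to 2.70; adjusted p = 0.529), and -0.45 ± 0.26 without that array. In modifier over wildtype it had -0.40, 0.55, -0.045 and -0.57 (fit -0.12 ± 0.77, adjusted p = 1). Modifier over Wobbler gave 0.74, 0.41, -0.13 and -0.56 (fit 0.12 ± 0.77, adjusted p = 0.980). Both ratios straddled 0, and their SE dropped to 0.22 when replicate 2 of Wobbler over wildtype was left out.

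Lamp1, an abundant glycoprotein of the lysosomal membrane, had 0.27, 0.22, 0.19 and 0.015 in modifier over wildtype as the mean of 3 probes. The mean was above 0 on each array, and the fit of 0.17 ± 0.14 (SE, n = 4; 95% interval -0.14 to 0.49) did not pass (adjusted p = 1). It was 0.067 with spots at whole-number ratios left out, and between 0.080 (without replicate 3) and 0.25 (without replicate 2) with 1 array left out. The positive sign came from 1 probe: probe 5132 had 0.88, 0.68, 1.04 and 0.42, whereas the means of the other probes were -0.16 (probe 5319) and -0.07 (probe 11868). Probe 5132 had values on only 2 of the 4 arrays of Wobbler over wildtype and so could not be tested singly. Set beside Ctsd, the other gene with the E-box core close to its start, Lamp1 had 0.17 ± 0.14 and Ctsd -0.31 ± 0.10, neither passing.

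In modifier over Wobbler the Lamp1 mean was 0.32, 0.64, -0.11 and -0.31 (fit 0.13 ± 0.14, 95% interval -0.18 to 0.45; adjusted p = 0.790). Wobbler over wildtype gave 0.54, 0.16, -0.55 and 0.072 (fit 0.06 ± 0.14, 95% interval -0.26 to 0.37; adjusted p = 0.864), with replicates 1 and 2 lacking probe 5132. Arrays fell on both sides of 0 each time. Probe 5319 taken singly lay above 0 on all 4 arrays of Wobbler over wildtype, at 0.62, 0.48, 0.32 and 0.36, a fitted 0.44 ± 0.12 that did not pass (adjusted p = 0.148).

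Lamp2, the X-linked second major LAMP protein, gave 6 values on 12 arrays. Modifier over wildtype had -3.41, -0.003 and 1.80, modifier over Wobbler -0.52 and -4.88, and Wobbler over wildtype 0.68. These values span several log2 units with no common direction, and too few arrays carried the spot for a fit.

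Psap, the saposin precursor, had -0.029, -0.001, -0.21 and -0.25 in modifier over wildtype (fit -0.12 ± 0.11, 95% interval -0.37 to 0.12; adjusted p = 1). Against Wobbler the modifier values were 0.27, 0.52, 0.085 and -0.014, positive on 3 of 4 arrays (fit 0.21 ± 0.11, 95% interval -0.03 to 0.46; adjusted p = 0.501). The Wobbler over wildtype values were 0.39, 0.22, -0.42 and -0.48 (fit -0.07 ± 0.11, 95% interval -0.32 to 0.18; adjusted p = 0.776). There the ratio took opposite signs in the 2 dye orientations, with means of 0.31 in replicates 1 and 2 and -0.45 in replicates 3 and 4.

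**Figure D4:**
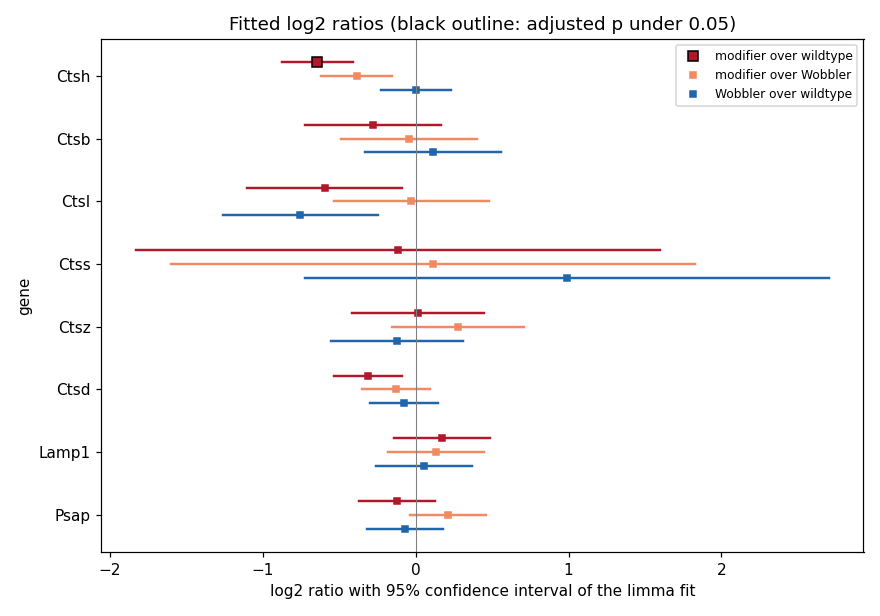
Fitted log2 ratio of the 8 tested members (points) with 95% intervals (bars), with colours for the comparisons; the vertical line marks 0 and a black outline an adjusted p under 0.05. The interval lies wholly below 0 for Ctsh, Ctsd and Ctsl in modifier over wildtype, for Ctsh in modifier over Wobbler and for Ctsl in Wobbler over wildtype, and only Ctsh in modifier over wildtype passed after adjustment.

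The median over the 8 tested members was -0.20 in modifier over wildtype, against 0.01 over all tested features. In modifier over Wobbler it was 0.04, against 0.08, and in Wobbler over wildtype -0.03, against -0.01. Members with a ratio below 0 numbered 6, 4 and 4 of 8 in those comparisons, while 47.5%, 38.4% and 50.8% of all features were below 0. After each array had been centred on its median, the members' median was -0.01 in modifier over Wobbler and 0.01 in Wobbler over wildtype, the opposite sign in both cases, and it stayed at -0.20 in modifier over wildtype. For 6 of the 8 members the SE was below the median SE of all features.

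Around these genes, 181 other lysosomal genes were listed, 124 had a probe and 116 were tested. By limma, 0 were called in either comparison of the modifier. For modifier over wildtype and modifier over Wobbler, 10 of 116 (8.62%, against 7.33% of all features) and 14 of 116 (12.1%, against 11.5%) had an unadjusted p under 0.05. The adjusted count in modifier over wildtype was 4 with arrays scaled to equal spread, 6 with array weights and 2 in the closed loop model. Of all 14729 tested features, 483, 702 and 224 were called in those settings, against 108 in the main fit, so calls rose over all features too. In modifier over Wobbler the adjusted count was 1 with arrays centred and 1 in the closed loop model. In Wobbler over wildtype 1 of 116 was called, in the higher direction, in which 0.122% of all features were called, and 13 (11.2%, against 15.7% of all features) had an unadjusted p under 0.05. That gene was Atp6v0a1, a membrane subunit of the V-ATPase proton pump that acidifies the lysosome. It was missing on replicate 1, had 2.28, 1.23 and 1.27 on replicates 2 to 4, and its fit was 1.70 ± 0.24 (SE, n = 3; adjusted p = 0.027). The value did not pass in several other settings, among them the closed loop model over the 3 pairs, where it was 1.02 (adjusted p = 0.429), and was 1.52 without replicate 2 (adjusted p = 0.169). The medians of the 116 genes were -0.02, 0.06 and 0.02 in modifier over wildtype, modifier over Wobbler and Wobbler over wildtype.

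Among the other peptidases, 0 of 10 were called in any comparison. In modifier over wildtype Ctsk, a collagen-cleaving cathepsin, had 0.27 (adjusted p = 0.730) and Ctsf, a further cysteine cathepsin, 0.36 (adjusted p = 0.990). Against Wobbler the modifier values were 0.44 for Ctsa, the protective protein of galactosidase (adjusted p = 0.376), and 0.49 for Ctsf (adjusted p = 0.445). Ctsa had -0.36 (adjusted p = 0.347) and Napsa, an aspartic protease, 0.29 (adjusted p = 0.482) in Wobbler over wildtype.

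Of 24 glycosidases, lipases and other hydrolases 0 were called. Hyal2, a hyaluronidase, had 1.54 (adjusted p = 0.106) in modifier over Wobbler, with all 4 arrays above 0, from 0.41 to 2.59. The mannosidase gene Man2b2 had 0.22 (adjusted p = 0.492) there. The sulfatase genes Arsa and Galns had 0.22 and 0.36 in modifier over wildtype (adjusted p = 1 for both). Asah1, acid ceramidase, had -0.46 (adjusted p = 0.249) and the thioesterase gene Ppt2 1.03 (adjusted p = 0.282) in Wobbler over wildtype, the second with 3.18 on replicate 2 and 0.18 to 0.41 on the others.

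Of 23 membrane proteins and cofactors 0 were called. Tpcn1, an endolysosomal cation channel, had -0.85 (adjusted p = 0.402) and Npc2, a cholesterol carrier, -0.25 (adjusted p = 0.697) in modifier over wildtype. Pip4p1, a phosphoinositide phosphatase, had -0.90 (adjusted p = 0.309) and Ctns, the cystine exporter, -0.90 (adjusted p = 0.329) in modifier over Wobbler. The Pip4p1 arrays lay between -1.10 and -0.77, those of Ctns between -2.22 and 0.34. Pip4p1 had 0.41 in modifier over wildtype and 0.22 in Wobbler over wildtype, neither passing. In Wobbler over wildtype Litaf, a late endosomal membrane protein, had 1.57 (adjusted p = 0.158) and Cln8, a cargo receptor for lysosomal enzymes in the early secretory pathway, 3.61 ± 0.95 (SE, n = 3; adjusted p = 0.181), with values of 4.13, 5.77 and 1.12.

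Of 26 sorting genes 0 were called. M6pr, the cation-dependent mannose 6-phosphate receptor that carries enzymes to the lysosome, had -0.35 (adjusted p = 0.669) in modifier over wildtype and 0.53 (adjusted p = 0.223) in Wobbler over wildtype, the second from 3 arrays. Vps29, a retromer subunit, had -0.25 (adjusted p = 0.560) in modifier over wildtype. Gga2, a Golgi adaptor for these receptors, had -0.61 (adjusted p = 0.293) and Ap1m2, a subunit of the AP-1 adaptor, 0.56 (adjusted p = 0.371) in modifier over Wobbler. Vps41, a subunit of the HOPS tether, had 1.34 (adjusted p = 0.291) in Wobbler over wildtype, with 4.90 on replicate 2.

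Besides Atp6v0a1, the V-ATPase list of 21 held Atp6v1f at -0.58 (adjusted p = 0.149) and Atp6v1e2, a testis form of the E subunit, at -0.59 (adjusted p = 0.244) in modifier over wildtype. The membrane subunit genes Atp6v0b and Atp6v0e had -1.06 (adjusted p = 0.196) and -0.56 (adjusted p = 0.235) in modifier over Wobbler, each below 0 on all 4 arrays. In modifier over wildtype they had 0.07 and -0.28, and in Wobbler over wildtype 0.22 and 0.26. Atp6v1a, the catalytic subunit, had 0.51 (adjusted p = 0.152) in Wobbler over wildtype.

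Typical cystatins are inhibitors of cysteine cathepsins, and 0 of 12 genes in the list of cystatins and other inhibitors were called. Whether the products of the listed genes inhibit cathepsins in testis was not tested. Cstl1, a cystatin-like gene, had -0.52 (adjusted p = 0.101) in modifier over wildtype and -0.56 (adjusted p = 0.077) in modifier over Wobbler, below 0 on all 8 arrays. Cst13, another cystatin, had -0.51 (adjusted p = 0.232) and -0.60 (adjusted p = 0.141) in the same comparisons, again below 0 on all 8. In Wobbler over wildtype Cst13 had -0.40 (adjusted p = 0.239) and Serpinb1a, a serpin, -0.51 (adjusted p = 0.326). List medians of modifier over wildtype were -0.15 for the inhibitors, -0.13 for the V-ATPase genes and 0.11 for the other peptidases; those of modifier over Wobbler were -0.28, -0.07 and 0.09 in the same order.

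**Figure D5:**
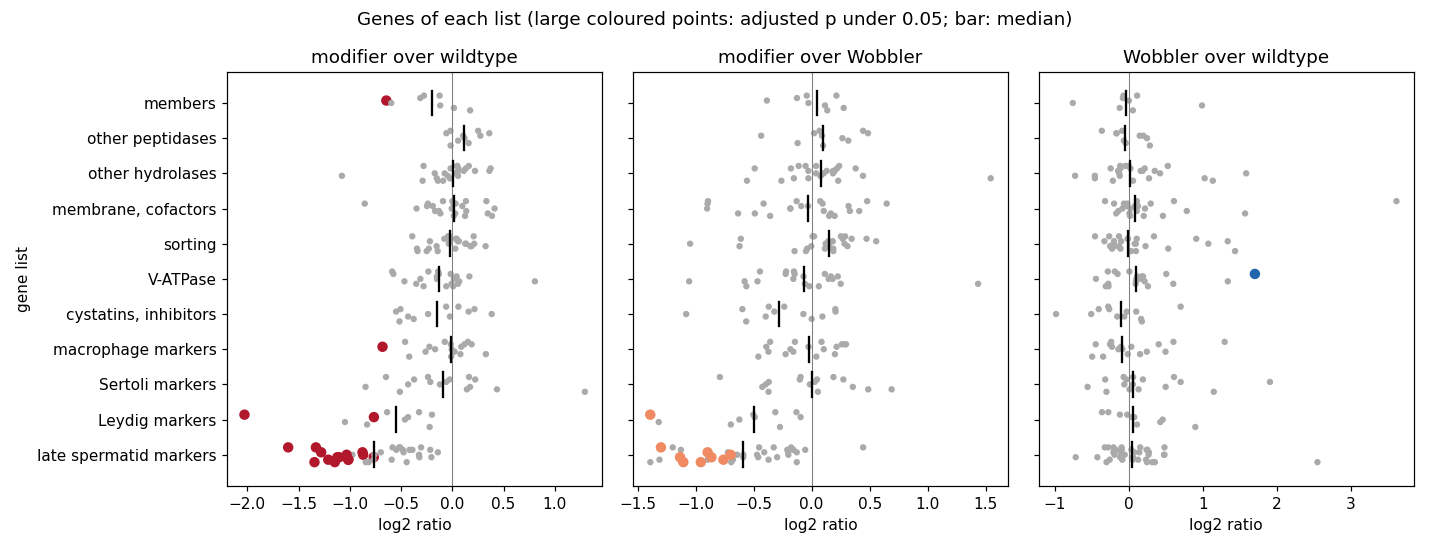
Log2 ratios (horizontal axis) of the genes in each lysosomal list and 4 of the cell type marker lists, by comparison; each point is 1 gene, large coloured points passed the adjusted p of 0.05, and the bar is the list median. In modifier over wildtype the late spermatid and Leydig lists have medians of -0.76 and -0.55, the 8 lysosomal members -0.20, and the other lysosomal lists lie between -0.15 and 0.11.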

How the data were processed

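The deposited values are log2 ratios, 1 per spot, made by the authors; for scanner, background and normalization steps the sources used here give nothing. A repeated value between 15.5 and 16.5 on each array was treated as missing (22 to 165 spots), and the values of dye-exchanged arrays (replicates 3 and 4) were multiplied by -1. Of 20355 probes, 14030 had 1 symbol, 5 several and 6320 none. Probes of a symbol were averaged, and 14729 of 16255 features, with values on at least 3 of 4 arrays of each comparison, were tested. The fit used lmFit and eBayes of limma 3.58.1 (R 4.3.3), with a mean for every comparison plus a dye term; p-values were Benjamini-Hochberg adjusted over all features, with a threshold of 0.05. An SE pools the spread over all 12 arrays. Simulated data served to test the procedure. Summaries and figures used Python 3.11.15.

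Members and gene lists were chosen with earlier results of these data known. Named were all members and their probes, lysosomal list genes that passed or had the 2 smallest p-values of their list in a comparison, for marker lists those 2 in modifier over wildtype, and the 5 named genes most correlated with Ctsh; Gata1 was added after its values were seen.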

Additional observations from a re-analysis of the deposited data

Results flagged for a closer look

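Among 44 groups of 4 arrays examined for the members and their probes, 1 array stood apart from its group; chance gives about 1 such group in 20. It was replicate 3 of modifier over Wobbler for Ctsd probe 11065, at 0.165 on the log2 scale, where the other replicates had -0.182, -0.181 and -0.146.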

How the results depend on the processing

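Of 288 values of the 8 members under other settings, 264 kept their direction and side of the threshold. Of the rest, 3 lost the call, 4 gained one and 17 turned sign. These settings include the one with no array turned, in which the dye-exchanged arrays kept their deposited sign. If the dyes were exchanged as labelled, a difference between genotypes then cancels in the mean by construction. The turned signs and missing calls of that setting therefore cannot show how stable a value is. With probes tested singly, a gene was counted only by its probe with the smallest p. Another probe of opposite sign, such as Ctsb probe 4211 at 0.465 in modifier over Wobbler, was not counted. Of 288 with 1 array left out, 270 kept both, 4 lost the call and 14 turned. The number of arrays limits the precision, and weak spots could not be filtered by intensity. A setting instead left out spots at ratios of whole numbers up to 5, taken as possibly dim. Apart from this cancelling with no array turned, the cause of the changes below was not tested.

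In modifier over wildtype, features called were 483 with arrays scaled to equal spread, 46 without the dye term, 4 with the 4 arrays alone, 702 with array weights, 224 in the closed loop model, 165 with probes tested singly and 0 with no array turned, against 108. Members called were 2, 0, 0 and 3 in the first 4 of these and 0 with no array turned, against 1. In modifier over Wobbler, features called were 7 without the dye term, 0 alone, 207 in the closed loop, 110 with probes singly and 0 unturned, against 61; members called were 1 in the closed loop (Ctsh at -0.47, adjusted p = 0.031), against 0. In Wobbler over wildtype, features called were 23 scaled, 24 without the dye term, 0 alone, 22 weighted, 0 in the loop, 87 with probes singly and 0 unturned, against 45. Direct minus indirect had 0 calls scaled and 0 unturned, against 4. The unturned counts are no check of the calls, since genotype differences cancel in that setting.

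With the replicate number as a block, calls were 58, 24, 22 and 1 in these comparisons and 0 members in modifier over wildtype (Ctsh adjusted p = 0.082); the labels tie the numbers to no shared source, and deviations of same-numbered arrays correlated between -0.029 and 0.065. Leaving out 1 array gave 20 to 154, 0 to 128, 18 to 54 and 2 to 4 features, and 0 to 1, 0 to 0 and 0 to 0 members.

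With no array turned, values of opposite sign were 0.21 (Ctsh), 0.061 (Ctsd), 0.042 (Ctsl), 0.19 (Ctss) and 0.11 (Psap) in modifier over wildtype, 0.12 (Ctsh), 0.18 (Ctsd) and -0.040 (Ctsz) in modifier over Wobbler, and 0.14 (Ctsd) and 0.38 (Psap) in Wobbler over wildtype. They are no measure of stability, since genotype differences cancel in this setting. The closed loop turned Ctss (0.29) in modifier over wildtype, Ctsl (0.034) and Ctss (-0.29) in modifier over Wobbler, and Ctsh (-0.085) and Ctsb (-0.0025) in Wobbler over wildtype. Lamp1 was -0.16 in modifier over wildtype with probes singly, and Ctss -0.020 in Wobbler over wildtype with weights. With 1 array left out, Ctsz lay between -0.038 and 0.091 and Ctss between -0.48 and 0.32 in modifier over wildtype, Ctsb between -0.30 and 0.14, Ctsl between -0.23 and 0.13 and Ctss between -0.13 and 0.34 in modifier over Wobbler, and Ctsh between -0.045 and 0.048, Ctsb between -0.10 and 0.20, Ctss between -0.45 and 1.59 and Lamp1 between -0.038 and 0.19 in Wobbler over wildtype. Without a change of sign, leaving out 1 array also moved Ctsb (-0.36 to -0.15) and Psap (-0.17 to -0.077) in modifier over wildtype, Ctsd (-0.20 to -0.090) and Lamp1 (0.035 to 0.21) in modifier over Wobbler, and Ctsd (-0.11 to -0.039) and Psap (-0.16 to -0.0014) in Wobbler over wildtype.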
